A study of Capra hircus with 6 samples.

Results

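The forkhead (FOX), SRY-related (SOX), GATA, T-box (TBX), EBF, RUNX, sine oculis-related, PAX, MEIS and PBX genes encode transcription factors that lay out tissues in the embryo and keep cell identity in the adult. They were measured by RNA sequencing in mesenchymal stem cells from the adipose tissue of goats (Capra hircus), which are stromal cells able to form fat cells. The members were taken by symbol alone from the 2 deposited tables, and 90 of the 16262 genes with a usable symbol belonged to these 10 families. The control group consists of 3 libraries of wild-type (WT) genotype. The other group consists of 3 libraries of cells overexpressing TAZ, the coactivator encoded by WWTR1. Every library is labelled as cells under adipogenic differentiation, so the controls were also under that treatment. The title of the study names TNF-α, but no label of a sample does. The design text says that lines overexpressing TAZ were made, and the labels give no promoter, vector or number of lines, nor whether the control carried an empty construct. The labels do not say whether a replicate is a culture or an animal of its own. The p-values therefore reflect library-to-library spread alone, and that spread may be technical.

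These families work by binding DNA through conserved domains, and members of a family often share a binding sequence while differing in the cells that express them. Several have known roles in fat. EBF1 and EBF2 promote the formation of fat cells, GATA2 and FOXO1 restrain it, SOX9 is kept in preadipocytes, and TBX15 marks particular fat depots. RUNX2 directs stromal cells towards bone and SOX9 towards cartilage. TAZ has no DNA-binding domain. It acts chiefly with TEAD factors, and RUNX2, TBX5, PAX3 and PAX8 are also known as partners that it coactivates.

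The 6 libraries held 16935698 to 18852822 fragments. The level unit is FPKM, fragments per unit of gene length and of library size, which is scaled for gene length and so can be compared between genes. WWTR1 stood at 30.2, 29.9 and 35.9 FPKM in the controls and at 84.6, 118.1 and 84.2 FPKM with TAZ, 2.99 times as high by the ratio of means (log2 fold change 1.54 with SE 0.126, limma adjusted p = 6.91e-07). Every TAZ library lay above every control, as its label says. Here and below, values of single libraries follow the order of replicates 1, 2 and 3. Stromal markers were high in both groups, with 15 of 15 measured and a summed level of 25184 to 26753 FPKM in the controls and 24469 to 26735 FPKM with TAZ. Of these 15, 4 were called higher and 5 lower, beside 15.7% and 22.1% of all tested genes. Of 12 fat cell markers only 3 passed the filter on low values, and the summed level was 21.0 to 23.8 FPKM in the controls and 20.6 to 23.4 FPKM with TAZ. Most of that sum was CIDEC, a lipid droplet protein, at 18.3 ± 1.31 against 17.8 ± 1.29 FPKM. The other 2 tested were called in opposite directions. LIPE, hormone-sensitive lipase, rose from 1.01 ± 0.114 to 2.13 ± 0.111 FPKM (limma adjusted p = 0.000168), and CEBPA, a factor of fat cell formation, fell from 1.87 ± 0.0523 to 0.961 ± 0.0887 FPKM (limma adjusted p = 0.000439). PPARG, the main regulator of fat cell formation, was at 0.0580 ± 0.0189 FPKM in the controls and at 0.0834 ± 0.0741 FPKM with TAZ (SD, n = 3). The label of adipogenic differentiation is therefore not matched by high levels of this factor. In bulk samples, fewer cells of a type and less RNA per cell cannot be told apart.

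Of the 90 members, 43 passed the filter, which asked for at least 1 FPKM in any 3 libraries or more, and 47 did not. Among the 43, 3 passed only through the group in which they were higher, namely FOXF1, SOX11 and GATA2. Changes are log2 fold changes of log2(FPKM + 1), TAZ minus control, which understate the change of low genes. A gene is called at a limma p-value, adjusted over all 10750 tested genes, under 0.05. Ratios are of mean FPKM with nothing added.

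**Figure D1:**
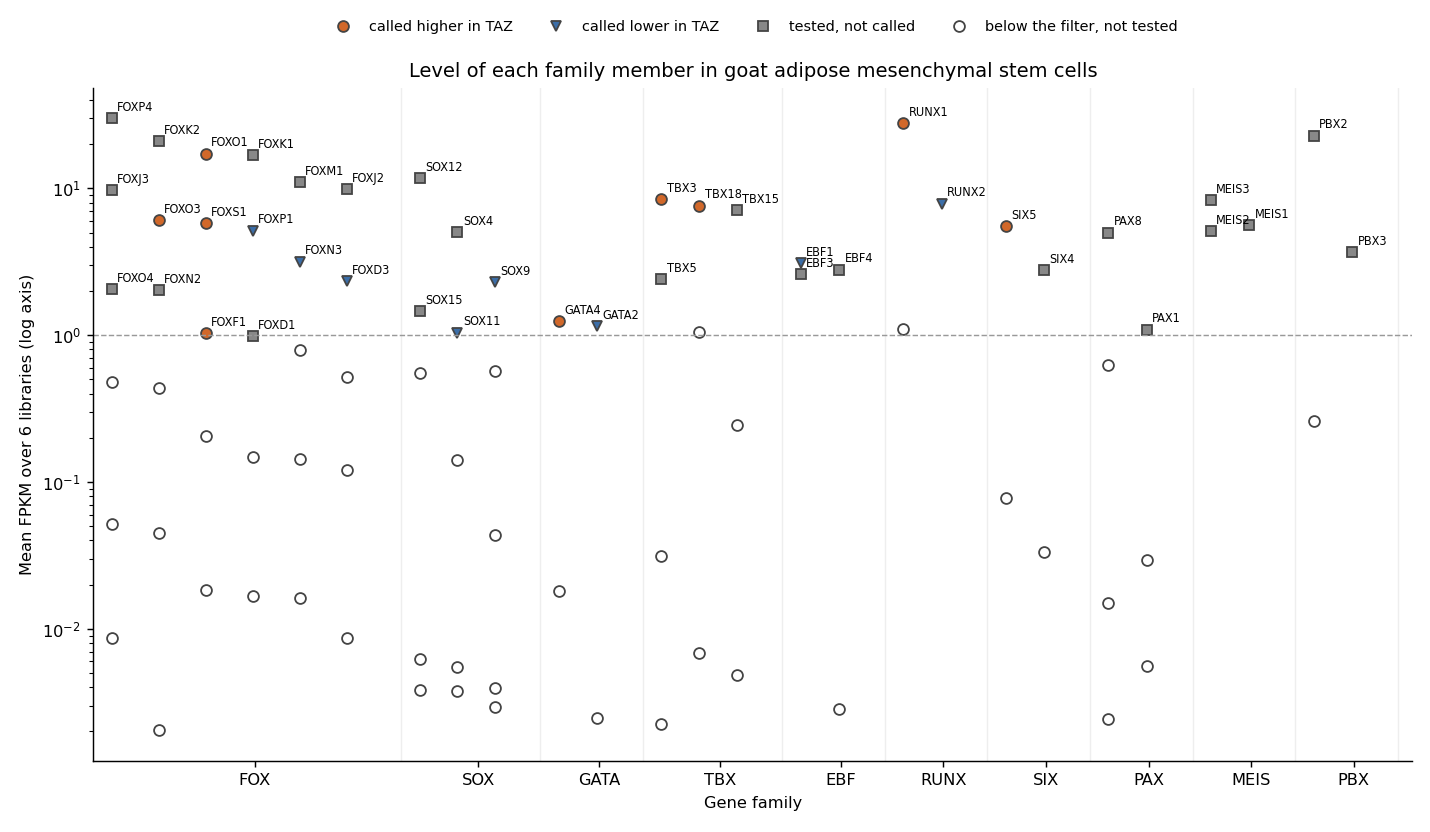
Mean FPKM over the 6 libraries (log axis) of members by family, with the symbol marking whether it was called higher or lower, tested and not called, or below the filter. The dashed line is at 1 FPKM. SOX10 and PAX3, at 0 in every library, are not drawn. The highest levels are those of FOXP4, RUNX1, PBX2 and FOXK2.

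The most abundant members in the controls were FOXP4 at 31.9 ± 4.83, RUNX1 at 23.6 ± 2.01, PBX2 at 22.8 ± 0.201 and FOXK2 at 22.3 ± 0.695 FPKM (mean ± SD, n = 3, as for all group values below). The last 3 of these did not differ beyond their spread. With TAZ, RUNX1 took first place at 32.1 ± 3.18 FPKM, ahead of FOXP4 at 28.1 ± 1.56 FPKM. The plot of levels by family shows that every family had at least a member above the filter, and that 11 of 16 SOX, 6 of 8 PAX and 6 of 10 TBX genes were below it.

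TAZ overexpression went with 9 members higher, 8 lower and 26 not past the test. The 17 called members made up 39.5% of the 43 tested, and over all tested genes 37.9% were called, so the count alone does not set these families apart. Over all genes 15.7% were called higher and 22.1% lower. The median log2 fold change was 0.025 over the tested members and -0.050 over all tested genes. Control and TAZ libraries were fully separated for 22 of the 43, or 51.2%, beside 48.4% of all tested genes. The balance depended on scaling. Median-ratio scaling gave 12 members higher and 6 lower (2001 higher and 1821 lower over all genes), and the recovered fragments fitted with voom gave 11 and 6 (2033 and 1805 over all genes). Of the 43 tested members, 5 were called and at least 2 times or at most 0.5 times as high by the ratio of means. They were FOXS1, FOXF1, TBX18, GATA2 and EBF1. Over all 10750 tested genes, 761 (7.08%) were called with a change of that size. FOXF1 and GATA2 passed the filter only through the group in which they were higher.

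**Figure D2:**
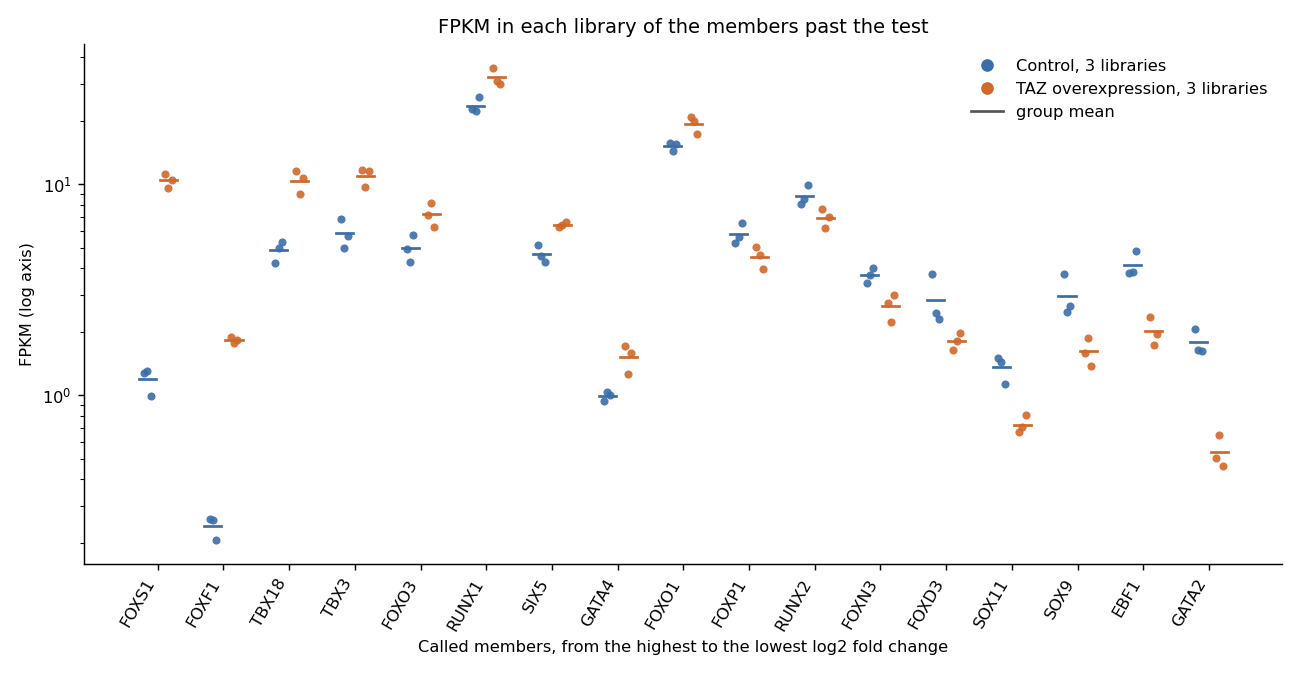
FPKM (log axis) of the 17 called members in each of the 3 control and 3 TAZ libraries, points for libraries and bars for group means, ordered by log2 fold change. The points of the groups do not overlap for any of the 17, which were called on these same values. FOXS1 and FOXF1 show the widest gaps upwards and GATA2 the widest downwards.

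Among the forkhead genes, FOXS1 and FOXF1 rose most. FOXS1, a single-exon forkhead gene known from neural crest derivatives and cells around blood vessels, was at 1.28, 1.30 and 0.991 FPKM in the controls and at 11.2, 9.64 and 10.4 FPKM with TAZ. All 3 TAZ libraries lay far above every control. Its mean went from 1.19 ± 0.172 to 10.4 ± 0.766 FPKM, 8.76 times as high (log2 fold change 2.38 with SE 0.102, limma adjusted p = 8.56e-10). FOXF1, which patterns the mesenchyme around gut and lung, was at 0.260, 0.257 and 0.205 FPKM in the controls and at 1.88, 1.76 and 1.82 FPKM with TAZ. It was thus a low gene in both groups, with 31.5 fragments in the controls and 250.0 with TAZ in all, and no library of either group came near the other. The ratio of means was 7.56 (log2 fold change 1.18 with SE 0.0897, limma adjusted p = 3.2e-07).

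The FOXO factors, which insulin signalling through AKT keeps out of the nucleus, did not all pass the test. FOXO3 was at 4.95, 4.27 and 5.72 FPKM in the controls and at 7.17, 8.13 and 6.28 FPKM with TAZ, 1.44 times as high (log2 fold change 0.46 with SE 0.118, limma adjusted p = 0.00843). FOXO1, the most abundant of them, was at 15.7, 14.3 and 15.5 FPKM against 20.9, 19.9 and 17.4 FPKM with TAZ, 1.28 times as high (log2 fold change 0.33 with SE 0.0945, limma adjusted p = 0.0144). Its groups did not overlap, but the call was lost without control replicate 2 (adjusted p = 0.0565) or without TAZ replicate 1 (adjusted p = 0.0668). FOXO4 was at 2.24 ± 0.196 against 1.89 ± 0.156 FPKM without overlap, and did not pass (limma adjusted p = 0.203), and FOXO6 had 2 fragments in the controls and 1 with TAZ. The ratio of FOXO1 to FOXO4 was 6.81 ± 0.553 in the controls and 10.4 ± 1.75 with TAZ, without overlap. Ratios between relatives are given here as a description, with no test.

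Another 3 forkhead genes, of other branches, were lower. FOXN3, a repressor linked to cell cycle checkpoints, was at 3.39, 3.71 and 4.01 FPKM in the controls and at 2.74, 2.23 and 2.98 FPKM with TAZ (log2 fold change -0.37 with SE 0.108, limma adjusted p = 0.0162). FOXN3 missed the threshold when TAZ replicate 2 was left out (adjusted p = 0.0796) and when low genes were not filtered (0.0524). FOXD3, known from pluripotent cells and the early neural crest, was at 3.77, 2.45 and 2.31 FPKM against 1.64, 1.80 and 1.97 FPKM (log2 fold change -0.44 with SE 0.132, limma adjusted p = 0.020). Control replicate 1 stood above the other controls, and without it the log2 fold change was -0.27 (adjusted p = 0.0845). FOXD3 also missed it when TAZ replicate 1 was left out (adjusted p = 0.0535) and when low genes were not filtered (0.0829). FOXP1, a repressor active in lymphoid and many other tissues, was at 5.25, 5.60 and 6.53 FPKM against 5.02, 4.60 and 3.97 FPKM (log2 fold change -0.30 with SE 0.109, limma adjusted p = 0.0474). Its groups were separated only narrowly. The call of FOXP1 was lost without control replicate 2 or 3 or TAZ replicate 2 or 3, with no filter, under median-ratio scaling and with voom, at adjusted p-values from 0.0539 to 0.203.

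Markers of other cells in which these forkhead genes are known moved as follows. Of 11 pericyte and smooth muscle markers, 11 were measured and 5 tested. Of the 5, 2 were called higher and 2 lower, beside 15.7% and 22.1% of all tested genes. The summed level was 1276 to 1749 FPKM in the controls and 769 to 921 FPKM with TAZ. It consisted mostly of TAGLN and ACTA2, both called lower. NOTCH3, a receptor of mural cells, and CNN1, a smooth muscle protein, were called higher, NOTCH3 at 12.5 ± 1.14 against 17.4 ± 0.631 FPKM. CSPG4 was at 25.7 ± 4.56 against 25.6 ± 5.58 FPKM and was not called, and RGS5 (0.0089 against 0.0067 FPKM) and KCNJ8 (0 against 0.0095 FPKM) were near 0. PDGFRB, counted here with the stromal markers and also carried by pericytes, rose from 41.5 ± 3.44 to 71.5 ± 4.44 FPKM. Of 8 Schwann cell and neural crest markers 6 were measured, with 1 higher and 1 lower and a summed level of 38.3 to 43.8 FPKM in the controls and 47.6 to 49.1 FPKM with TAZ, mostly S100B. SOX10, which defines that lineage, was at 0 in every library, and ERBB3 did not reach 0.01 FPKM in the mean of either group. Their part in the changes of FOXS1 and FOXD3 was not tested.

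The remaining 9 tested forkhead genes did not pass. The broadly expressed FOXK1 and FOXK2, repressors tied to metabolism and autophagy, were at 17.5 ± 1.22 against 16.04 ± 1.06 FPKM (95% interval of the log2 fold change -0.32 to 0.08) and at 22.3 ± 0.695 against 19.8 ± 0.933 FPKM. FOXK2 was lower in every TAZ library than in any control, yet missed the threshold (limma adjusted p = 0.139). FOXP4 was at 31.9 ± 4.83 against 28.1 ± 1.56 FPKM, FOXJ2 at 9.45 ± 0.787 against 10.3 ± 0.780 FPKM, FOXJ3 at 9.43 ± 0.675 against 10.1 ± 1.13 FPKM and FOXD1 at 0.877 ± 0.137 against 1.10 ± 0.245 FPKM. FOXN2 was at 1.69 ± 0.293 against 2.38 ± 0.574 FPKM (limma adjusted p = 0.0659), and it passed without control replicate 3 (adjusted p = 0.0224), without TAZ replicate 3 (0.0279), under median-ratio scaling (0.0425) and with voom (0.0388). FOXM1, which drives genes of the G2 and M phases, was at 14.1, 9.35 and 10.8 FPKM against 9.41, 13.2 and 9.14 FPKM, with the groups interleaved (limma adjusted p = 0.635). Of 20 G2 and M phase genes linked to FOXM1, 1 was called higher (CDK1, 15.6 ± 2.02 against 20.2 ± 1.28 FPKM) and 0 lower. The median of those 20 was -0.13, and 5% of them were called, beside 37.9% of all tested genes.

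Of 23 tested targets and regulators of FOXO factors, 6 were called higher and 7 lower, with a median log2 fold change of -0.11. That is 56.5% called, beside 37.9% of all tested genes (15.7% higher and 22.1% lower). SOD2, mitochondrial superoxide dismutase, was at 29.5 ± 4.69 against 388 ± 44.5 FPKM (limma adjusted p = 2.46e-11) and TXNIP, a thioredoxin inhibitor, at 12.1 ± 2.18 against 34.2 ± 0.747 FPKM. In the other direction FBXO32, a muscle atrophy ubiquitin ligase known as a FOXO target, was at 20.5 ± 2.22 against 13.4 ± 1.59 FPKM, and USP7, a deubiquitinase that acts on FOXO proteins, at 30.6 ± 0.717 against 22.5 ± 0.651 FPKM. SOD2 is also a known NF-kB target, so it is not specific to FOXO factors.

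**Figure D3:**
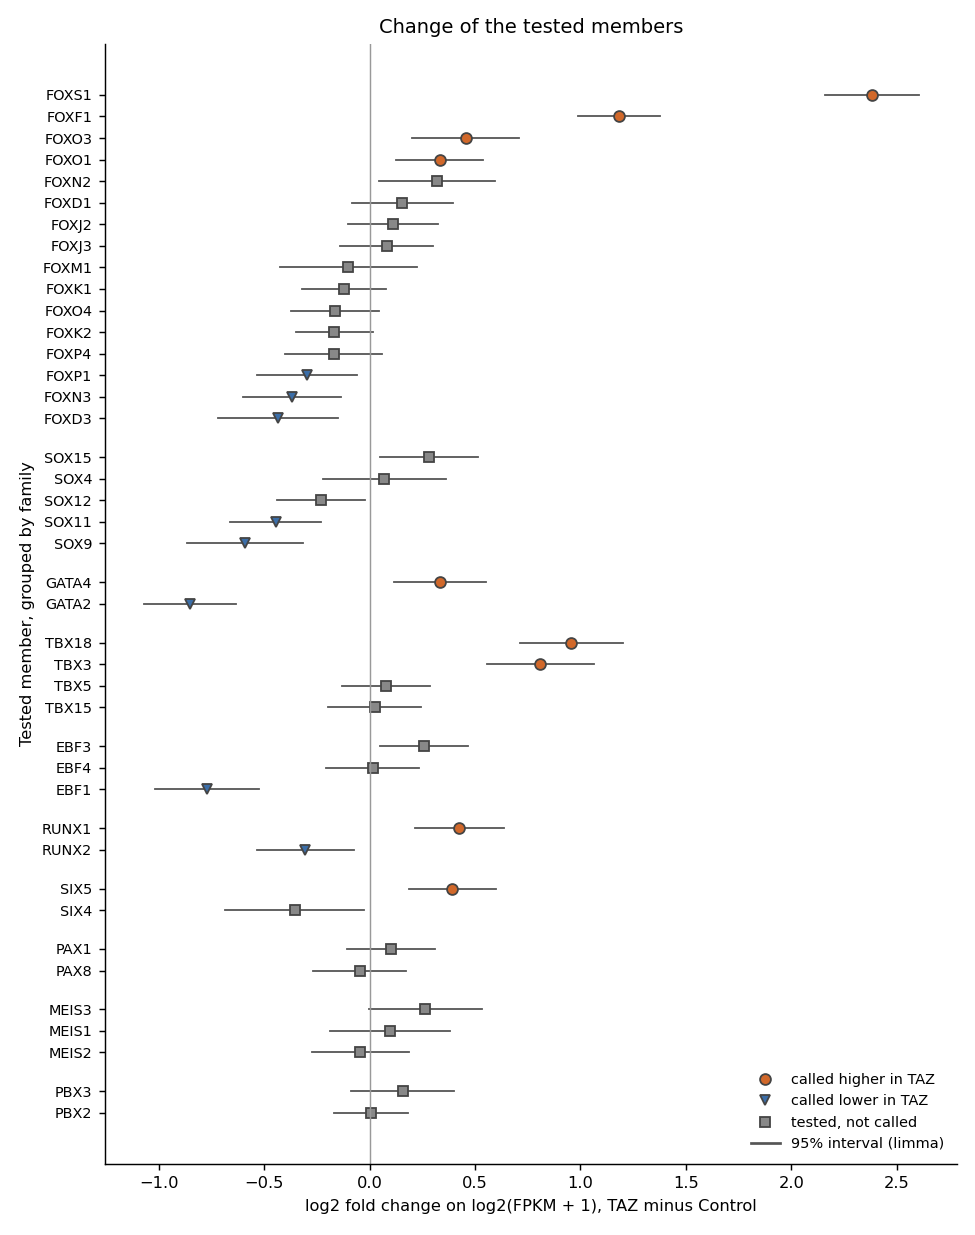
Log2 fold change on the log2(FPKM + 1) scale, TAZ minus control, of 41 of the 43 tested members by family, with 95% limma intervals. Circles are called higher, triangles called lower and squares not called. FOXS1 at 2.38 is the highest value and GATA2 at -0.85 the lowest.

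The T-box genes gave a pair of clear rises. TBX18, known from the epicardium and from cells around blood vessels, was at 4.25, 5.01 and 5.32 FPKM in the controls and at 11.5, 8.98 and 10.7 FPKM with TAZ. Its lowest TAZ library was well above the highest control, and the mean was 2.14 times as high (log2 fold change 0.96 with SE 0.112, limma adjusted p = 2.11e-05). TBX3, a repressor that acts in limb, mammary gland and stem cells, was at 6.88, 4.98 and 5.68 FPKM against 11.6, 9.67 and 11.6 FPKM, 1.87 times as high (log2 fold change 0.81 with SE 0.117, limma adjusted p = 0.000132). TBX15, the depot-marking relative of TBX18, was at 7.09 ± 0.896 against 7.19 ± 0.287 FPKM (limma adjusted p = 0.879, 95% interval -0.20 to 0.25). TBX18 was thus below TBX15 in the controls, at a ratio of 0.645, 0.765 and 0.655, and above it with TAZ, at 1.56, 1.22 and 1.56. TBX5, a forelimb and heart factor and known partner of TAZ, was at 2.31, 2.34 and 2.26 FPKM against 2.49, 2.24 and 2.75 FPKM, with overlapping groups (limma adjusted p = 0.556). TBX2, the closest relative of TBX3, was below the filter at 1.58, 1.24 and 0.866 FPKM against 0.858, 0.878 and 0.929 FPKM (limma adjusted p = 0.206 with no filter). The other 5 T-box genes, TBX1, TBX4, TBX6, TBX19 and TBX20, were below 0.3 FPKM in the mean of both groups.

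GATA2 fell and GATA4 rose. GATA2, which holds preadipocytes back from differentiation and is needed in blood and vessel cells, was at 2.06, 1.64 and 1.63 FPKM in the controls and at 0.503, 0.646 and 0.464 FPKM with TAZ. No TAZ library reached the lowest control. The ratio of means was 0.302 (log2 fold change -0.85 with SE 0.102, limma adjusted p = 2.45e-05), from 279.5 fragments in the controls and 89 with TAZ. GATA4, a factor of heart and endoderm, was at 0.939, 1.04 and 0.998 FPKM against 1.71, 1.26 and 1.59 FPKM (log2 fold change 0.33 with SE 0.10, limma adjusted p = 0.0187). GATA4 did not pass once control replicate 1 or TAZ replicate 1 or 3 was left out, at adjusted p-values from 0.0566 to 0.0740. The ratio of GATA2 to GATA4 went from 2.20, 1.58 and 1.63 in the controls to 0.294, 0.514 and 0.292 with TAZ, so the more abundant of the pair was GATA2 in every control and GATA4 in every TAZ library. GATA5 and GATA6 had 2.5 and 0.5 fragments in the controls and 3 and 1 with TAZ.

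Of 7 tested GATA partners, 0 were called higher and 4 lower, with a median of -0.35, beside 15.7% and 22.1% of all tested genes. LMO4, a LIM-only adaptor, fell from 94.8 ± 5.55 to 50.3 ± 4.82 FPKM and TCF3, an E protein, from 11.8 ± 0.0354 to 7.96 ± 0.222 FPKM. LDB1 and LYL1 were the other falls, and LYL1 passed the filter only through the controls, where it was higher. LMO2, a further LIM-only partner, was below the filter at 0.0236 against 0.352 FPKM, from 2.5 and 40 fragments, and was higher with TAZ in the fit with no filter (limma adjusted p = 0.00121). TAL1 and LDB2, also below the filter, were lower in that fit. TAL1 was at 0.437 against 0.301 FPKM (limma adjusted p = 0.00697) and LDB2 at 0.125 against 0.0474 FPKM (0.0178). Of 13 endothelial markers 11 were measured, 1 was called higher (FLT1, which passed the filter only through TAZ) and 1 lower (ERG), and the summed level was 10.7 to 11.7 FPKM in the controls and 7.27 to 8.04 FPKM with TAZ. ERG alone made up most of it, at 10.1 ± 0.525 against 5.77 ± 0.311 FPKM. Of the defining vessel genes, KDR was at 0 in every library and CDH5 at 0.0035 against 0 FPKM. PECAM1 was below the filter at 0.369 ± 0.0842 against 0.0928 ± 0.0318 FPKM, from 66.5 and 17.5 fragments, and was lower with TAZ in the fit with no filter (limma adjusted p = 0.00415). SOX17 had 0 fragments in the controls and 1 with TAZ. The part of such cells in the fall of GATA2 was not tested.

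Of the 5 tested SOX genes, 2 were called lower, SOX9 and SOX11. SOX9, the master factor of cartilage, was at 3.75, 2.48 and 2.65 FPKM in the controls and at 1.59, 1.87 and 1.38 FPKM with TAZ. Control replicate 1 was the highest, and every TAZ library lay below every control. The ratio of means was 0.545 (log2 fold change -0.59 with SE 0.127, limma adjusted p = 0.00263). SOX11 belongs with SOX4 and SOX12 to the SoxC branch, known from progenitors of many tissues, and was at 1.50, 1.44 and 1.12 FPKM against 0.666, 0.705 and 0.808 FPKM (log2 fold change -0.44 with SE 0.0996, limma adjusted p = 0.00348). SOX12, the most abundant SOX gene, was at 12.8 ± 0.962 against 10.8 ± 0.813 FPKM. Its groups did not overlap but it missed the threshold (limma adjusted p = 0.0763), which it passed without control replicate 3 (adjusted p = 0.0336). SOX4 was at 4.87 ± 0.973 against 5.14 ± 0.782 FPKM (95% interval -0.22 to 0.36). SOX15 was at 1.23 ± 0.271 against 1.70 ± 0.113 FPKM (limma adjusted p = 0.0569), and it passed under median-ratio scaling (adjusted p = 0.0398), with no mean-variance trend (adjusted p = 0.04996) and without control replicate 2 (adjusted p = 0.0490).

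SOX5, which acts beside SOX9 in cartilage, was below the filter and went the other way. It was at 0.408, 0.436 and 0.427 FPKM in the controls and at 0.785, 0.675 and 0.696 FPKM with TAZ, from 86 and 153 fragments (limma adjusted p = 0.00244 with no filter). The ratio of SOX9 to SOX5 was 9.19, 5.68 and 6.22 in the controls and 2.03, 2.76 and 1.98 with TAZ, without overlap. SOX6, the third of this set, had 1.5 fragments in each group. Of 16 measured cartilage matrix genes linked to SOX9, COL11A1 alone passed the filter, at 47.4 ± 9.50 against 53.5 ± 5.08 FPKM, and it was not called (limma adjusted p = 0.272). COL2A1 was at 0.0037 against 0.0018 FPKM (1 and 0.5 fragments) and ACAN at 0.0315 against 0.0022 FPKM (13.5 and 1 fragments). COL9A3 went the other way, at 0.0328 against 0.192 FPKM (6 and 37 fragments). In the fit with no filter COL9A3 was higher with TAZ (limma adjusted p = 0.00248), and ACAN (0.0324) and COMP (0.00606) were lower. These changes rest on few fragments. SOX13 was at 0.595 ± 0.221 against 0.504 ± 0.0837 FPKM. SOX2, a pluripotency factor, had 8.5 fragments in the controls and 6 with TAZ, and SOX18, an endothelial factor, had 4.5 and 3.5. SOX10 had 0 in all 6 libraries, which leaves room for at most 3 fragments in each.

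RUNX1 and RUNX2 were called in opposite directions. RUNX1, a factor of blood formation that stromal cells also express, was at 22.7, 22.2 and 25.9 FPKM in the controls and at 35.7, 30.8 and 29.7 FPKM with TAZ (ratio of means 1.36, log2 fold change 0.43 with SE 0.0975, limma adjusted p = 0.0040). RUNX2, the bone factor and TAZ partner, was at 8.06, 8.50 and 9.89 FPKM against 7.63, 6.19 and 7.01 FPKM (ratio 0.788, log2 fold change -0.30 with SE 0.107, limma adjusted p = 0.0387). The lowest control and the highest TAZ library of RUNX2 lay close together. Its call was lost without control replicate 2 or 3 or TAZ replicate 2 or 3, with no filter, under median-ratio scaling and with voom, at adjusted p-values from 0.0512 to 0.152. The ratio of RUNX1 to RUNX2 was 2.82, 2.61 and 2.62 in the controls and 4.68, 4.98 and 4.24 with TAZ, without overlap. RUNX3 was below the filter at 0.884, 0.631 and 0.731 FPKM against 0.990, 1.94 and 1.42 FPKM and did not pass with no filter (limma adjusted p = 0.0547).

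Of 11 tested RUNX partners and bone genes, 1 rose and 4 fell, with a median of -0.12. That is 45.5% called, beside 37.9% of all tested genes. The largest fall was that of SP7, the bone factor downstream of RUNX2, from 1.33 ± 0.227 to 0.567 ± 0.160 FPKM. SP7 passed the filter only through the controls. HAND2 was next, from 13.8 ± 1.38 to 10.5 ± 0.770 FPKM. CBFB, the shared partner subunit of all RUNX proteins, fell from 19.7 ± 1.28 to 16.3 ± 1.37 FPKM (log2 fold change -0.26, limma adjusted p = 0.0454). Late bone genes differed in level. BGLAP, at 0.124 against 0.0208 FPKM, and IBSP, at 0 against 0.0060 FPKM, were near 0. SPP1, of the same list, was high at 394 ± 8.51 against 453 ± 22.0 FPKM and was not called (limma adjusted p = 0.0624). Of 14 leukocyte markers 11 were measured, with 1 called higher (CD14, 9.58 ± 1.38 against 24.2 ± 0.421 FPKM) and 1 lower (CD68), and the summed level was 14.5 to 17.8 FPKM in the controls and 27.8 to 28.4 FPKM with TAZ. PTPRC, which all leukocytes carry, was at 0 in every library.

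EBF1 fell, and its tested relatives were not called. EBF1, which promotes fat cell formation and B cell fate, was at 3.78, 3.85 and 4.80 FPKM in the controls and at 2.35, 1.74 and 1.96 FPKM with TAZ. All TAZ values were below all control values (ratio of means 0.486, log2 fold change -0.77 with SE 0.113, limma adjusted p = 0.000149). EBF3 was at 2.24, 2.17 and 2.43 FPKM against 2.99, 3.14 and 2.64 FPKM, without overlap, and missed the threshold (limma adjusted p = 0.0522). It was past it under median-ratio scaling (adjusted p = 0.0272), with voom (0.0169), with no mean-variance trend (0.0415) and without control replicate 3 (0.0474). The ratio of EBF1 to EBF3 was 1.69, 1.77 and 1.98 in the controls and 0.784, 0.552 and 0.743 with TAZ, so that EBF1 was the higher of the pair in every control and EBF3 in every TAZ library. EBF4 was at 2.79 ± 0.321 against 2.82 ± 0.208 FPKM. EBF2, the marker of brown fat precursors, had 1 fragment in the controls and 0.5 with TAZ. Of 5 tested EBF partners and relatives, 1 rose and 3 fell, beside 15.7% and 22.1% of all tested genes. ZFP36L1, an RNA decay factor, rose from 50.4 ± 0.845 to 80.4 ± 6.23 FPKM, while TCF3 fell as given above and ZNF521, which antagonises EBF1, from 9.84 ± 1.18 to 6.34 ± 0.103 FPKM.

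The sine oculis-related genes gave 1 call, a rise. SIX5, which lies beside the DMPK gene of myotonic dystrophy, was at 5.12, 4.56 and 4.30 FPKM in the controls and at 6.26, 6.37 and 6.64 FPKM with TAZ (ratio of means 1.38, log2 fold change 0.39 with SE 0.0963, limma adjusted p = 0.00608). SIX4 was at 2.44, 3.16 and 4.09 FPKM against 2.86, 1.71 and 2.32 FPKM and did not pass (limma adjusted p = 0.0844), although it did without control replicate 1 (0.0234) or TAZ replicate 1 (0.0270). SIX2 had 6, 2.5 and 5.5 fragments in the controls and 1.5, 0 and 1.5 with TAZ (limma adjusted p = 0.0331 with no filter), so its change rests on few fragments. None of the 5 tested partners of the sine oculis-related and PAX factors was called, which were EYA3, TLE3, TLE4, PAXIP1 and PAXBP1, at limma adjusted p-values from 0.116 to 0.989.

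No PAX gene was called. PAX8, a thyroid and kidney factor and known TAZ partner, was at 5.53, 5.16 and 4.60 FPKM against 5.33, 4.48 and 4.87 FPKM (limma adjusted p = 0.748, 95% interval -0.27 to 0.17). PAX1, a factor of the spine, was at 1.02 ± 0.0446 against 1.17 ± 0.162 FPKM (limma adjusted p = 0.435). PAX6, the eye factor, was below the filter at 0.680 ± 0.105 against 0.573 ± 0.0246 FPKM. PAX3, a further TAZ partner, had 0 fragments in every library, so a difference was not detectable at this depth. PAX7, the muscle stem cell factor, had 1.5 fragments in the controls and 8 with TAZ. Of 10 skeletal muscle markers, PAX7 among them, 8 were measured and 0 passed the filter, with a summed level of 0.661 to 0.869 FPKM in the controls and 0.312 to 0.424 FPKM with TAZ. Of the TAZ partners in these families, RUNX2 was thus called lower, TBX5 and PAX8 were not called and PAX3 had no fragment.

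The MEIS and PBX genes, whose TALE homeodomain proteins bind DNA together with HOX proteins, were expressed in both groups and none was called. PBX2 was at 22.9, 22.6 and 22.9 FPKM in the controls and at 22.4, 22.5 and 23.9 FPKM with TAZ. Its 95% interval of the log2 fold change was -0.17 to 0.18, which is a narrow range around 0. PBX3 was at 3.43 ± 0.457 against 3.94 ± 0.479 FPKM. MEIS1 was at 5.41 ± 0.965 against 5.85 ± 0.955 FPKM and MEIS2 at 5.21 ± 0.665 against 5.01 ± 0.327 FPKM. MEIS3 was at 7.50 ± 1.47 against 9.14 ± 0.884 FPKM (limma adjusted p = 0.108) and passed without control replicate 1 (adjusted p = 0.0157). PBX4 was below the filter at 0.207 ± 0.0758 against 0.310 ± 0.0702 FPKM. Also tested were 9 linked genes, namely TALE genes and PBXIP1, a PBX-interacting protein that is not a TALE gene. Of these, 2 rose and 4 fell, beside 15.7% and 22.1% of all tested genes. The falls were led by IRX1, from 6.93 ± 0.520 to 4.50 ± 0.297 FPKM, and IRX5, from 4.33 ± 0.558 to 2.90 ± 0.149 FPKM. TGIF1, a repressor of TGF-beta responses, rose from 24.4 ± 2.55 to 33.0 ± 3.40 FPKM, and PKNOX2, a partner of PBX proteins, from 0.656 ± 0.211 to 1.13 ± 0.195 FPKM. PKNOX2 passed the filter only through TAZ.

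**Figure D4:**
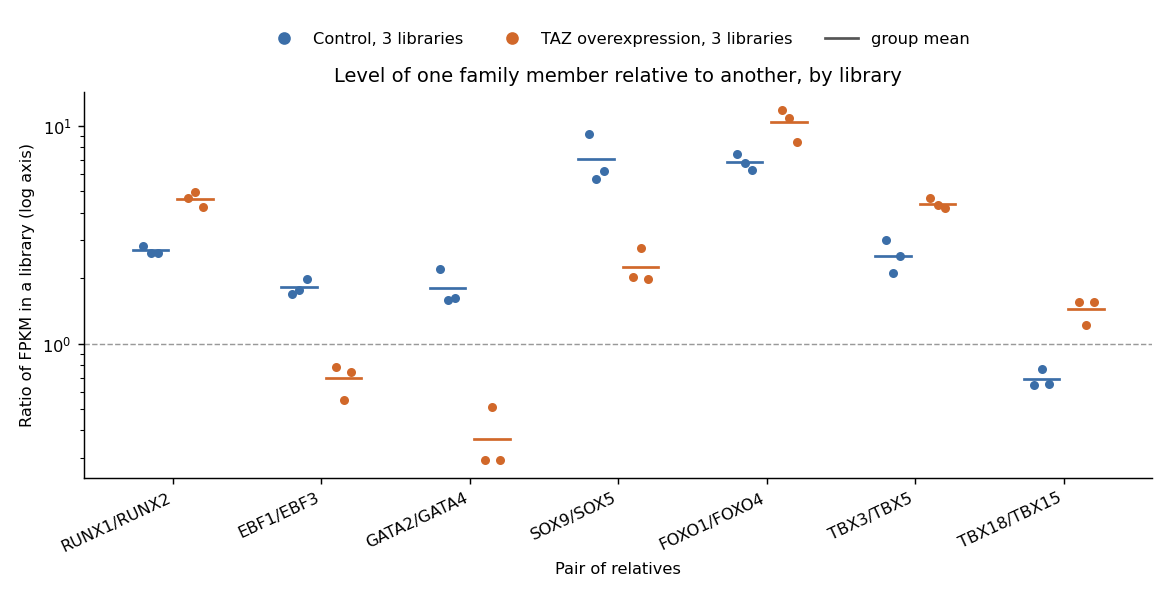
Ratio of the FPKM of 1 member to that of a relative in the same library (log axis), for 7 pairs, in the 3 control and 3 TAZ libraries, with bars for group means. The groups do not overlap in any of the 7 pairs drawn. EBF1 to EBF3, GATA2 to GATA4 and TBX18 to TBX15 cross the dashed line at 1.

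Several members lie next to each other on the chromosome. In the order of protein-coding genes of the RefSeq goat assembly ARS1.2, 9 pairs of members stood side by side or with at most 2 genes between them. FOXF1, FOXC2 and FOXL1 form such a group, with MTHFSD between FOXF1 and FOXC2. FOXF1 rose as given above, whereas FOXC2 was at 0.158 against 0.256 FPKM (24.5 and 41.5 fragments, limma adjusted p = 0.246 with no filter) and FOXL1 had 2 and 3.5 fragments. TBX5 and TBX3 are direct neighbours, and the ratio of TBX3 to TBX5 was 2.98, 2.12 and 2.52 in the controls and 4.68, 4.32 and 4.20 with TAZ. SIX2 and SIX3 are also neighbours, as are TBX2 and TBX4, and FOXC1 and FOXF2. FOXC1 was at 0.452 ± 0.0292 against 0.421 ± 0.0979 FPKM and FOXF2 had 0 fragments in the controls and 0.5 with TAZ. The members of a neighbouring group therefore did not share a level.

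Of the 47 members below the filter, 10 reached 0.3 FPKM in the mean of either group. They were FOXC1, FOXD2, FOXE1, FOXP2, SOX5, SOX13, TBX2, RUNX3, PAX6 and PBX4. FOXP2, the speech-related relative of FOXP1, was at 0.598, 0.638 and 0.807 FPKM against 0.964, 0.843 and 0.880 FPKM, without overlap (limma adjusted p = 0.0743 with no filter). FOXD2 was at 0.419 ± 0.0645 against 0.538 ± 0.155 FPKM and FOXE1, a thyroid factor, at 0.534 ± 0.169 against 0.497 ± 0.0804 FPKM. The other 37 had at most 16.5 fragments in any library, and 26 of them had 10 or fewer over all 6 libraries together. In the fit with no filter, 3 of the 47 passed the threshold, SOX5 and SIX2 among them. FOXA1, a factor of epithelia and liver, had 2 fragments in each group, and the 10 epithelial markers, of which 0 passed the filter, summed to 1.53 to 2.16 FPKM in the controls and 1.18 to 1.81 FPKM with TAZ.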

How the data were processed

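The authors deposited FPKM values as 2 tables, for control and for TAZ, that share their 16285 rows. The submitters' processing notes name fastp, HISAT2 and HTSeq, without versions. Build and strandedness, and how reads shared by paralogs were counted, are not given in sources used here. A date in place of a symbol kept 23 rows out. Samples were grouped by title. Values were taken as log2(FPKM + 1) and fitted with limma 3.58.1 in R 4.3.3 (mean-variance trend, two-sided, Benjamini-Hochberg over the 10750 genes at 1 FPKM or more in at least 3 libraries). The fit was also run on simulated data with a single fixed spread and few changed genes. That setting differs from these data, so the run does not measure the error of the calls given here. Fragment numbers were recovered, in steps of 0.5, from the spacing of the FPKM values, which gave library totals. The recovered fragments made up 99.73% to 99.76% of these totals, and floors cover counting error only. Libraries of a group differed by more than sampling noise (chi-square per degree of freedom 9.15 to 14.3). All 90 members were found in the RefSeq table, used for names and gene order only.

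Members past the threshold, and all other tested members, are named with values, as are members at 0.3 FPKM or more below the filter. Of 8 lists of linked genes (RUNX, SOX9, FOXO, FOXM1, GATA, TALE, sine oculis-related and PAX, EBF), the leading genes in each direction are named. Members were selected by symbol, but the families and lists were chosen with earlier results of these data known, and no list was tested. Alternatives tried were voom on recovered fragments, a replicate block, no trend, leaving out each library, scaling by median ratios, quantile normalization, other pseudocounts (0.1 and 0.5) and other filters (none, or a mean of 5 FPKM). Some genes are not reported here.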

Additional observations from a re-analysis of the deposited data

How the results depend on the processing

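Of the 17 called members, 11 were called under each of the 15 alternatives that kept them, and FOXD3, FOXN3, FOXO1, FOXP1, GATA4 and RUNX2 were lost under some, as given with their values. In turn 6 members not called were called under some. No called member changed sign. The number called lower, 8, was 5 with no filter (2286 over all genes, against 2381 in the main fit). FOXD3, FOXN3, FOXP1 and RUNX2 were lost there, and SIX2 was gained on few fragments. At a mean of 5 FPKM or more, 2 were called lower (1851 over all genes), and 6 of the 8 were no longer tested. Leaving out a library gave 5 to 8 lower (5 without TAZ replicate 2) and 7 to 11 higher, and over all genes 1386 to 1878 higher and 1819 to 2518 lower. With the replicate block, 10 were higher and 7 lower, the calls of FOXP1 and RUNX2 were lost and FOXN2 and SIX4 were gained. Libraries of the same number did not deviate together from their group means (correlations across genes -0.44, -0.11 and -0.40). Libraries of different numbers did, with 0.69 for control 3 and TAZ 1, 0.53 for control 1 and TAZ 2 and 0.55 for control 2 and TAZ 3. No label pairs these, and no fit used them as pairs. Deviations from a mean of 3 libraries offset each other, so these correlations are linked and cannot show whether libraries were paired. The sign changed for 9 of the reported members, none of them called. EBF4 was at -0.036 under quantile normalization and MEIS2 at 0.0032 with voom. Leaving out a library gave log2 fold changes of -0.0023 to 0.13 for FOXJ3, -0.26 to 0.050 for FOXM1, -0.071 to 0.18 for SOX4, -0.023 to 0.11 for TBX15, -0.034 to 0.082 for EBF4, -0.11 to 0.0032 for PAX8, -0.018 to 0.21 for MEIS1, -0.13 to 0.022 for MEIS2 and -0.024 to 0.022 for PBX2. Depth limits the 37 lowest members, for which a difference was in general not detectable.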
